A study of Mus musculus with 2 samples.

Results

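The genes described here encode cytokines of the interleukin-6 family, their receptors, the transcription factor that the receptors activate and its feedback inhibitor: *Il6*, *Il11*, *Lif*, *Osm*, *Il6st*, *Il6ra*, *Osmr*, *Lifr*, *Stat3* and *Socs3*. These 10 of the 37074 gene names on the array were matched by name. They were chosen by their ratios between the genotypes on these same arrays, so the values are a description and no test was made. The 2 single-colour Agilent arrays hold striatal RNA of WT and Cx30 KO mice, 1 array for each genotype. WT mice were labelled C57BL/6J and Cx30 KO mice Cx30-LacZ, a strain without the astrocytic gap junction protein connexin 30. The methods, unlike this label, describe WT controls bred from heterozygous parents. All animals were male, were 8 weeks old and had been given 4 injections of 20 mg/kg MPTP, a toxin of dopaminergic neurons, at intervals of 2 h. RNA of 2 mice of each genotype was pooled for day 1. The WT mice carry the treatment too, and mice without MPTP were not analysed here. The comparison is thus of the genotypes after MPTP only. Because there is 1 pool for each genotype, no spread between mice was available for any value, and genotype, pool, strain background and array cannot be told apart.

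Cytokines of this family bind a receptor chain of their own, such as the interleukin-6, interleukin-11, oncostatin M or leukaemia inhibitory factor receptor, and signal through the shared chain gp130, the product of *Il6st*. Janus kinases bound to the receptors phosphorylate STAT3, which enters the nucleus and activates genes such as *Socs3*, whose product binds the receptor complex and dampens the signal. In the injured brain this pathway in astrocytes is known for driving reactive gliosis, including the intermediate filament genes *Gfap* and *Vim*.

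The sequences that carry the comparison are those of the probes that differed most between the arrays, printed as the first 30 of the 60 bases of each probe, together with the *Socs3* promoter, which holds the STAT binding motif. The 3 probes of *Osmr* are shown because they did not move alike, and *Osm* because it moved the other way. The positions of the probes are those of the files (mm9). The probe of *Il11* lies at chr7:4724847-4724906 on the minus strand, and that of *Osm* at chr11:4140873-4140932 on the plus strand. Those of *Osmr* lie on the minus strand of chromosome 15, at chr15:6763686-6763745, chr15:6791978-6792037 and chr15:6804987-6805046. That of *Socs3* lies at chr11:117827480-117827539 on the minus strand. The brightest probes of the genes without a printed sequence lie at chr13:113296586-113296645 (*Il6st*), chr3:89674054-89674113 (*Il6ra*), chr15:7147319-7147378 (*Lifr*) and chr11:100749598-100749657 (*Stat3*), and whether a probe lies in coding sequence was not determined here.
Il11 A_51_P267783: ctggggtctctatgaaatctgttcacagtg
Osm A_55_P2830665: gtctcagaagctggtgagcaattacttgga
Osmr A_51_P319460: attgcagatgctctgtttacattttcttgt
Osmr A_66_P124309: caggaaatgtataactttactctcacagct
Osmr A_55_P2721494: gggtgtagacctaggaatctcattgctggg
Socs3 A_51_P474459: ccttcgaggctgtctgaagatgcttgaaaa

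The *Socs3* promoter is given as the 250 bases before the start of the gene (RefSeq, GRCm38.p6, chr11:117969367-117969616, minus strand), with the match to TTCNNNGAA in capitals.
Socs3 promoter: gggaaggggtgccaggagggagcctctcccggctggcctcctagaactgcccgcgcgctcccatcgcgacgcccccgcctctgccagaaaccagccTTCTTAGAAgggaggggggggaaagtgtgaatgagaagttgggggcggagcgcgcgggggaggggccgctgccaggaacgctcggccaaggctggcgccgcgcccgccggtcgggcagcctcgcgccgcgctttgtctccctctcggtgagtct

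Signals are the background-subtracted processed signals of the scanner software in arbitrary units, given with the error that the software assigns to the spot. Ratios are Cx30 KO over WT after each array was divided by its own 75th percentile (401.2 for WT, 381.8 for Cx30 KO). A gene was called lower with a ratio of at most 0.66 and a Z-score of at most -2, and higher with a ratio of at least 1.5 and a Z-score of at least 2, the limits of the study. The Z-score is the distance of a log2 ratio from the mean of the 1000 probes nearest in mean signal, in units of their SD. As a check of the labels, the *Gjb6* probe with the highest signal, for the gene of connexin 30, read 1788 ± 179 in WT against 111 ± 11.6 in Cx30 KO, 15.4-fold lower. Its other probe was well above background in WT only and at least 4.33-fold lower in Cx30 KO. Spots of 297 probes printed several times gave a log2 ratio with an SD of 0.0413 between spots, whereas the ratios of different probes of a gene had a pooled SD of 0.256 over 7147 genes. Each probe of the cytokine and receptor genes was printed once.

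*Il11*, *Osmr* and *Socs3*, a ligand, a receptor chain and the feedback inhibitor, had lower signals in Cx30 KO mice. Of the 10 genes, 9 had a probe well above background and 3 of these were called lower. The arrays held 22012 genes with a probe well above background on at least 1 array, here termed all genes. Of these, 3.39% were called lower. None (0 of 9) of the cytokine and receptor genes was called higher, where 2.39% of all genes were. By the ratio limits alone, without the Z-score, the same 3 genes were lower, where 6.21% of all genes were, and 1, *Osm*, was higher, where 7.22% were. The median log2 ratio of the 9 genes was -0.36, against 0.03 over all genes, and 8 of the 9 were below 0, as were 45.4% of all genes. Since the genes were chosen with these ratios known, nothing is read from the difference from all genes. The array holds 21 probes for the 10 genes, of which 15 were well above background on both arrays and 6 on neither. A lower signal in striatal RNA can come from fewer cells of a type or from less RNA in each cell, and these cannot be told apart.

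**Figure D1:**
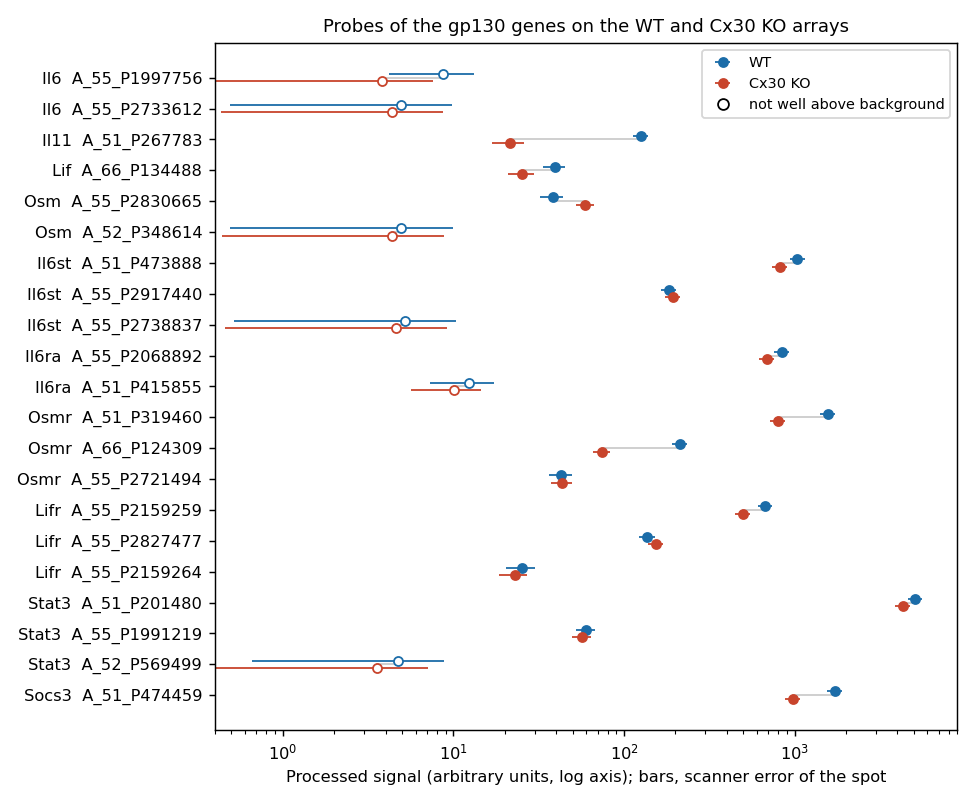
Processed signal of the 21 probes of the 10 genes on the WT (blue) and Cx30 KO (red) arrays, on a log axis in arbitrary units. Points are single spots, bars are the scanner software's error (lower ends shortened where they would reach 0), and open points are not well above background; the widest gaps are those of *Il11* (125 against 21.4) and of the *Osmr* probe A_66_P124309 (213 against 74.3).

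Among the ligands, *Il11* encodes interleukin-11, a cytokine that acts through its own receptor chain and gp130. Its probe, shown above, gave a signal of 125 ± 13.3 in WT against 21.4 ± 4.48 in Cx30 KO. The readings did not overlap within their errors, and that in Cx30 KO was close to 17.4, the lowest signal marked as well above background on that array. The log2 ratio was -2.48, with a scanner error of 0.34, or 5.58-fold lower, and the Z-score was -4.50. Only 0.972% of all genes had a ratio as low or lower. The size of this ratio depended on how the background was handled, as it was -1.05 on the log2 scale after normexp background correction, in which *Il11* was still called lower.

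Leukaemia inhibitory factor, the product of *Lif*, uses the receptor chain encoded by *Lifr* together with gp130. Its probe, at chr11:4172032-4172091, read 39.2 ± 5.67 in WT against 25.3 ± 4.39 in Cx30 KO. The log2 ratio of -0.56 had a scanner error of 0.33, and *Lif* was not called, with a ratio of 0.679 just outside the limit of 0.66 and a Z-score of -0.85. Both readings were dim, and their difference was less than 2 scanner errors.

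Oncostatin M, encoded by *Osm*, signals through the *Osmr* product and gp130. *Osm* was the only one of the 9 genes with a ratio above 0. Its probe read 38.1 ± 5.88 in WT against 59.2 ± 7.12 in Cx30 KO, for a log2 ratio of 0.70 with a scanner error of 0.28. The ratio of 1.63 passed the limit of 1.5, but the Z-score of 1.12 did not pass, because ratios of this size were common among probes as dim as this. The other *Osm* probe was not well above background on either array. *Osm* and *Lif* are neighbours on chromosome 11, with 0 protein-coding genes between them in the RefSeq order, and their readings lay on opposite sides of 0.

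Interleukin-6, the cytokine that gives the family its name, could not be compared. The *Il6* probes read 8.66 ± 4.45 and 4.91 ± 4.92 in WT and 3.81 ± 3.83 and 4.35 ± 4.36 in Cx30 KO. All these readings are below the detection floors of the arrays, 19.8 for WT and 17.4 for Cx30 KO. A level of *Il6* below this detection limit remains possible in either genotype.

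**Figure D2:**
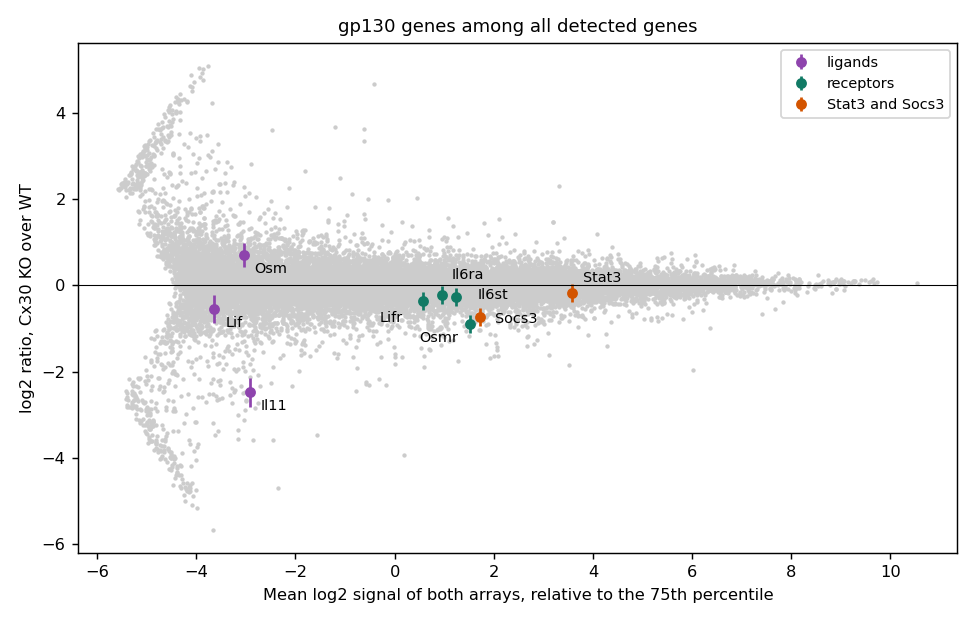
log2 ratio of Cx30 KO over WT against the mean log2 signal of both arrays for the 22012 genes tested (grey) and the 9 gp130 genes with a signal well above background (colours; bars, scanner error of the ratio). *Il11* lies at -2.48 among dim genes, *Osmr* and *Socs3* lie at the lower edge of genes of like signal, *Osm* lies above 0, and the grey arms at the left are genes close to background on 1 array.

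Of the receptor chains, *Osmr*, which encodes the chain that binds oncostatin M, was called lower and the others were not. Its brightest probe, A_51_P319460, read 1562 ± 156 in WT against 799 ± 80.0 in Cx30 KO. The log2 ratio was -0.90 with a scanner error of 0.20, or 1.86-fold lower, and the Z-score was -3.18. A separate probe of the same transcript, A_66_P124309, read 213 ± 21.8 in WT against 74.3 ± 8.41 in Cx30 KO, which gives a log2 ratio of -1.45 and a Z-score of -3.88. These probes, which the files place at bases 4666 and 1022 of the *Osmr* RefSeq transcript, thus both met the limits for lower. The probe A_55_P2721494, which the files assign to an Ensembl transcript of *Osmr*, read 42.9 ± 6.61 in WT against 43.4 ± 6.23 in Cx30 KO. Its log2 ratio was 0.09 with a scanner error of 0.30, so this dim probe did not move with the brighter probes. Whether it reads a separate transcript was not tested.

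The gp130 chain itself, shared by the receptors of interleukin-6, interleukin-11, oncostatin M and leukaemia inhibitory factor, was not called. The brightest *Il6st* probe read 1038 ± 104 in WT against 820 ± 82.1 in Cx30 KO, which gives a log2 ratio of -0.27 and a scanner error of 0.20. Another *Il6st* probe, A_55_P2917440, read 183 ± 19.0 in WT against 194 ± 19.9 in Cx30 KO, for a log2 ratio of 0.15. The *Il6st* probes therefore lay on opposite sides of 0, each within 1.5 scanner errors of it.

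*Il6ra* encodes the chain that binds interleukin-6. Its detected probe read 844 ± 84.5 in WT against 690 ± 69.1 in Cx30 KO, which gives a log2 ratio of -0.22 and a Z-score of -0.75. *Lifr* encodes the chain that binds leukaemia inhibitory factor, and its brightest probe read 673 ± 67.5 in WT against 500 ± 50.2 in Cx30 KO, which gives a log2 ratio of -0.36, at a Z-score of -1.07. The other *Lifr* probes had log2 ratios of 0.24 (137 ± 14.4 in WT against 154 ± 15.9 in Cx30 KO) and -0.07 (25.2 ± 4.88 in WT against 22.8 ± 4.32 in Cx30 KO), so the direction of *Lifr* was not the same over its probes. The mean over its probes was -0.06. *Osmr* and *Lifr* are neighbours on chromosome 15, with 0 protein-coding genes between them in the RefSeq order, and of this pair *Osmr* met the limits and *Lifr* did not.

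STAT3, the transcription factor of the pathway, showed little difference in its mRNA. The brightest *Stat3* probe read 5103 ± 510 in WT against 4300 ± 430 in Cx30 KO, for a log2 ratio of -0.18 with a scanner error of 0.20. A dimmer probe, A_55_P1991219, read 59.6 ± 7.52 in WT against 56.7 ± 6.98 in Cx30 KO, for a log2 ratio of -0.0016. The arrays measure mRNA, and the phosphorylation of STAT3 was not measured.

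*Socs3*, which encodes the feedback inhibitor, was lower in Cx30 KO. Its probe read 1719 ± 172 in WT against 979 ± 97.9 in Cx30 KO. The log2 ratio was -0.74 with a scanner error of 0.20, or 1.67-fold lower, and the Z-score was -2.72. The ratio of 0.598 was the closest to the limit of 0.66 among the 3 cytokine, receptor and inhibitor genes called lower. With a Z-score taken over all probes, *Socs3* (-1.27) and *Osmr* (-1.53) were no longer called, while *Il11* (-4.17) was. With ratio limits of 2 and 0.5, *Il11* alone of the 9 genes was called lower.

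**Figure D3:**
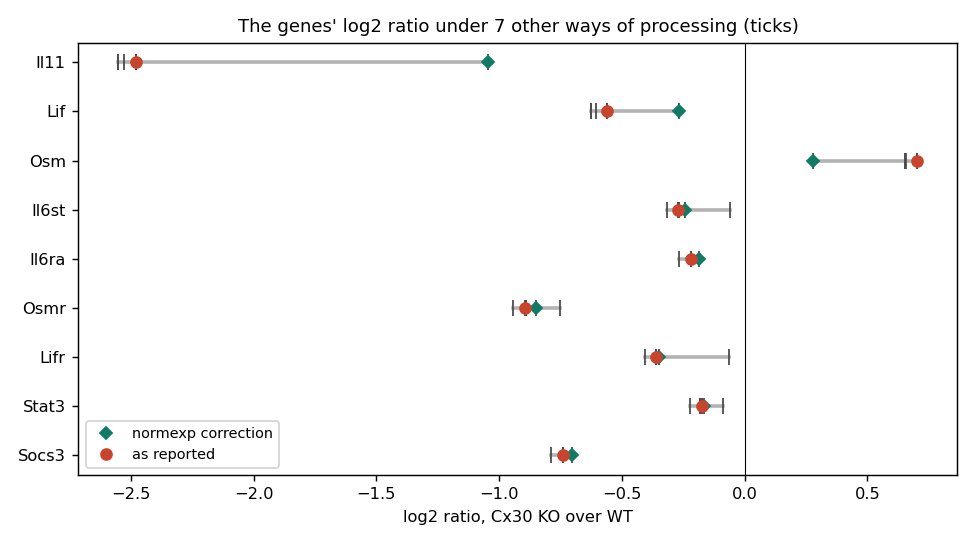
log2 ratio of Cx30 KO over WT for the 9 detected genes as reported (red points) and under 7 other ways of processing (ticks; green diamonds, normexp background correction), with grey lines from the lowest to the highest. Each gene stays on its side of 0, and *Il11* has the widest range, from -2.55 to -1.05.

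The remaining genes of the pathway were taken as lists. Of 8 other ligands and ligand subunits, 6 were detected, 0 were called lower and 0 higher, and their median log2 ratio was -0.0047. *Cntf* and *Clcf1* are named here after their values were seen. *Cntf*, which encodes ciliary neurotrophic factor, read 186 ± 19.1 in WT against 122 ± 12.8 in Cx30 KO, for a log2 ratio of -0.54 with no call. *Clcf1*, which encodes cardiotrophin-like cytokine, was well above background in WT only, and was at least 2.24-fold lower in Cx30 KO with no call. Of the 6 detected genes of this list, 3 had a ratio below 0 and 3 above.

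Of 5 other receptor chains, *Il11ra2* had no probe on the array and 3 were detected, with 0 called in either direction. The median log2 ratio of 0.01 changed sign with quantile scaling, scaling to the array median, the authors' value table and no filter on dim probes. *Il11ra1*, which encodes the chain that binds interleukin-11, read 3184 ± 318 in WT against 3056 ± 306 in Cx30 KO, for a log2 ratio of 0.01. The mRNA of the interleukin-11 receptor chain encoded by *Il11ra1* therefore showed no difference beyond its scanner error. The ligand gene *Il11* differed 5.58-fold as reported, a log2 ratio of -2.48 that was -1.05 after normexp correction.

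All 13 kinases and signal transducers were detected, with a median log2 ratio of 0.05. *Jak1*, a Janus kinase bound to gp130, read 2599 ± 260 in WT against 2562 ± 256 in Cx30 KO, for a log2 ratio of 0.05. *Ptpn11*, a phosphatase that links gp130 to the MAP kinase pathway and the gene with the highest signal in this list, had a log2 ratio of -0.06. *Stat5a*, which encodes another STAT protein, was the 1 gene of the list called lower, and 0 were called higher. It read 5487 ± 549 in WT against 3214 ± 321 in Cx30 KO, for a log2 ratio of -0.70, but its dimmer probe, at 99.7 ± 10.8 and 114 ± 11.9, gave 0.27. The *Stat5a* call therefore rests on 1 of its 2 probes. *Stat4*, named here after its values were seen, passed the background mark in Cx30 KO alone, at least 2.21-fold higher there, with no call.

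Of 14 other negative regulators, which comprise SOCS proteins, PIAS proteins and phosphatases, all 14 were detected and 0 were called in either direction. Their log2 ratios ran from -0.57 to 0.46 with a median of -0.11. *Socs7*, the regulator with the highest signal, read 8197 ± 820 in WT against 9129 ± 913 in Cx30 KO, for a log2 ratio of 0.23. None (0 of 14) of these genes had a ratio as low as the -0.74 of *Socs3*.

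**Figure D4:**
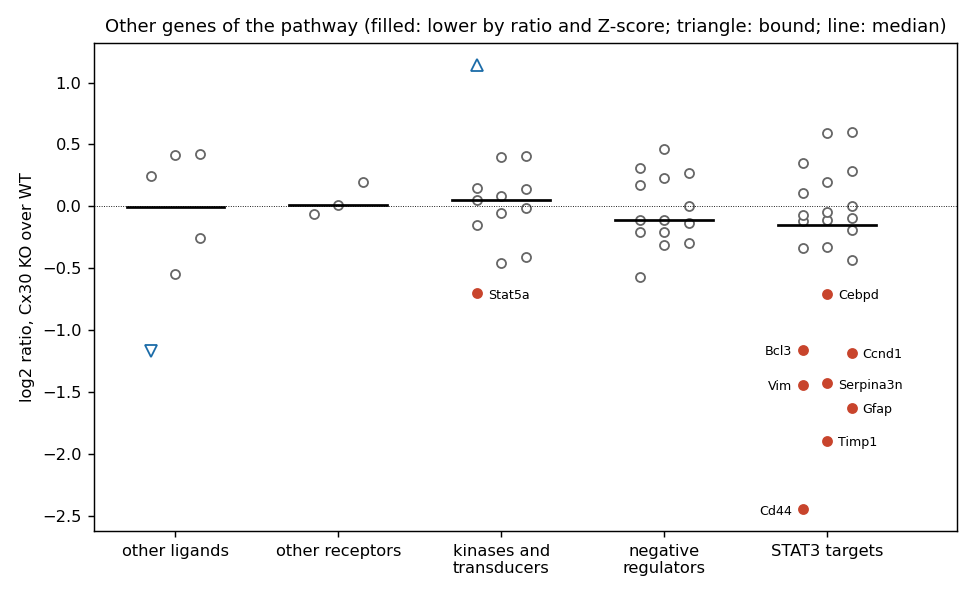
log2 ratio of Cx30 KO over WT for each detected gene of the 5 pathway lists, with black lines at the medians and a dotted line at 0. Filled points met both limits for lower, and triangles mark bounds for genes well above background on 1 array only (*Clcf1* down, *Stat4* up); 8 of the 9 filled points are in the list of STAT3 targets, and the other is *Stat5a*.

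Of 25 genes known as targets of STAT3, 24 were detected, 8 were called lower and 0 higher, with 17 below 0 and 7 above. Over all genes, 3.39% were called lower and 2.39% higher, and 45.4% were below 0. The median of the 24 log2 ratios was -0.15, against 0.03 over all genes. This list was written with earlier results of these arrays known, and it holds genes of reactive astrocytes that were already seen to differ, so the count is no independent evidence. Those called lower include *Cd44*, *Timp1*, *Gfap*, *Vim* and *Serpina3n*, which are induced in reactive astrocytes, with log2 ratios from -2.44 to -1.43. Not all such genes of the list were lower. *Lcn2*, which is also induced in reactive astrocytes and is named after its values were seen, was not called. Its 2 probes had log2 ratios of 0.35 and 0.49. The other genes called lower are regulators of transcription and the cell cycle. *Ccnd1*, which encodes cyclin D1, read 1718 ± 172 in WT against 720 ± 72.2 in Cx30 KO, for a log2 ratio of -1.18. *Bcl3*, which encodes a nuclear partner of NF-kappaB, read 1133 ± 113 in WT against 483 ± 48.5 in Cx30 KO, for a log2 ratio of -1.16. *Cebpd*, which encodes an acute phase transcription factor, read 6911 ± 691 in WT against 4039 ± 404 in Cx30 KO, for a log2 ratio of -0.70. The arrays hold RNA of the whole striatum, so none of these differences was assigned to a cell type.

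The other 16 detected targets were not called, and they include early and acute phase genes, named here after their values were seen. *Junb* and *Myc*, which encode transcription factors of the immediate response, had log2 ratios of -0.09 and 0.19. *Pim1*, which encodes a survival kinase, read 384 ± 38.7 in WT against 551 ± 55.3 in Cx30 KO, for a log2 ratio of 0.59. *Lcn2* and *Lrg1*, which encode secreted acute phase proteins, had log2 ratios of 0.35 and 0.29. *Fos*, another transcription factor of the immediate response, read 725 ± 72.7 in WT against 512 ± 51.4 in Cx30 KO, for a log2 ratio of -0.43. *Bcl6* and *Mcl1*, which encode a transcriptional repressor and a survival factor, both had log2 ratios of -0.33. The uncalled targets thus lay on both sides of 0.

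The STAT motif TTCNNNGAA, which reads the same on both strands, was searched in windows of 250 bases before to 50 bases after each gene start in the RefSeq table. It was present in 8.30% of all 32851 windows, detected or not on the arrays. Of the 10 genes, 9 had a window, 11 windows in all, and 1 of these, that of *Socs3*, held the motif, at bases -154 to -146 (TTCTTAGAA, chr11:117969512-117969520). In the 27 windows of the STAT3 targets 5 held it, and in the 6 windows of the targets called lower 1 held it, that of *Gfap* at bases -2 to 7 (TTCCAGGAA). A match is a description of the letters and not of binding, and *Il11* and *Osmr* had no match within this window.

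Marker genes of cell types were read beside these results. All 9 striatal neuron markers were detected on both arrays with 0 called, and their summed level, in units of each array's 75th percentile, was 1226 in WT and 1272 in Cx30 KO. The 9 general astrocyte markers had a median log2 ratio of 0.01, with summed levels of 451 in WT against 429 in Cx30 KO, and 1 of them, the water channel gene *Aqp4*, was called lower. Of 8 microglial markers 4 were called lower (*Aif1*, *Cx3cr1*, *P2ry12* and *Tmem119*), and 7 of the 8 had a log2 ratio below 0, with a median of -0.52. Their summed levels were 227 and 220, of which *Itgam*, named after its values were seen, took the largest part (log2 ratio 0.13, not called), and without it the sums were 77.8 and 56.3, a sum added after the data were seen. Of 7 oligodendrocyte markers 5 were called lower (among them *Mbp*, *Mog*, *Mag* and *Mal*), with summed levels of 437 and 274. The probes of *Mbp* and *Mag* did not all move alike. The *Mbp* probe A_52_P604195 read 6039 ± 604 in WT against 6235 ± 623 in Cx30 KO, a log2 ratio of 0.12. The *Mbp* probe A_52_P329451 gave -0.72. The dimmer *Mag* probe gave 0.24, whereas all probes of *Mog* were below 0. Of 6 cortical neuron markers 5 were called higher (among them *Slc17a7*, *Neurod2*, *Neurod6* and *Tbr1*), with summed levels of 0.435 and 3.64, and 4 of the 6 were well above background in Cx30 KO only. The arrays therefore differed in markers of cell types as well as in the cytokine and receptor genes.

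In each of the remaining marker lists at most 1 gene was called. Of 8 endothelial markers 1, *Flt1*, was called lower, with summed levels of 47.4 in WT against 41.9 in Cx30 KO. The other detected *Flt1* probes had log2 ratios of -0.15 and 0.52, so this call rests on 1 of its 3 detected probes. Of 6 choroid plexus markers 1, *Ttr*, was called lower, with summed levels of 4.07 and 3.64. None of the 6 mural, 7 blood leukocyte and 6 meningeal fibroblast markers was called (0 in each list), and their summed levels were 17.5 and 19.3, 1.82 and 2.09, and 2.79 and 3.03. Of the 7 blood leukocyte markers 5 were detected, 4 with a log2 ratio above 0 and 1 below, with a median of 0.20. *S100a8* and *S100a9* are named here after their values were seen. *S100a8* was well above background in Cx30 KO only, at least 2.26-fold higher there, with no call. *S100a9* had a log2 ratio of 0.89 and a Z-score of 1.99, also with no call. The blood leukocyte marker *Ccr2* was not well above background on either array. The part of these markers in the values of *Il11*, *Osmr* and *Socs3* was not tested.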

How the data were processed

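Spot signals of 2 arrays, 1 for WT and 1 for Cx30 KO, were used. The authors made them with Agilent Feature Extraction, version 9.5.1.1 in the submitters' processing notes and 10.7.1.1 in the file headers. The deposited processed signals are linear intensities, background-subtracted and detrended within each array and not normalised between arrays. The authors' value table, also of intensities, was used as an alternative, and 99.991% of its values lay within 1% of the quantile-normalised processed signals.

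Each array had 62976 spots and 56605 probes apart from controls. Outlier spots were left out, repeated spots were averaged on the log2 scale, and each array was scaled to its 75th percentile. A probe was detected when 50% or more of its spots carried the software mark for well above background, which held for 32019 probes in WT and 32961 in Cx30 KO, and 0 were saturated. A gene was read by its brightest probe detected on at least 1 array. A gene detected on 1 array has only a bound, its fold over the detection floor of the other array or over its signal there if that was higher. Older symbols on 2038 probes were replaced through the RefSeq table. The scanner error of a log2 ratio combines the errors of both spots.

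The members and gene lists were chosen with earlier results of these data known. Named were all members, pathway genes that met the criteria, the brightest other ligand, receptor, kinase and regulator, marker genes that met them, and *Gjb6*, apart from a few genes that are not reported here. With 1 array for each genotype no test was made, and precision is limited by how few arrays there are. Scaling, background correction, the filter on dim probes, the choice of probe and the criteria were varied. Calculations used R 4.3.3 with limma 3.58.1 and Python 3.11.15, and the call rule was tested on simulated data.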

Additional observations from a re-analysis of the deposited data

How the results depend on the processing

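Over 7 alternatives for each of the 9 detected genes, all 63 log2 ratios kept their sign and 59 lay within the spread between probes of a gene. The other 4 were nearer to 0: *Il11* (-1.05), *Lif* (-0.27) and *Osm* (0.28) after normexp correction, and *Lifr* (-0.06) as the mean of its probes; the cause was not tested. *Il11*, *Osmr* and *Socs3* were called lower under every other scaling and filter. The count of 3 lower became 1, *Il11*, with a Z-score over all probes and also 1 with ratio limits of 2 and 0.5, and the count of 0 higher became 1, *Osm*, with the ratio limits alone. Over all genes, 746 were lower and 525 higher as reported, 455 and 502 with a Z-score over all probes, 427 and 339 with limits of 2 and 0.5, and 1367 and 1589 with the ratio limits alone. Only genes detected on both arrays gave 503 and 332, and the median of the other ligands was then 0.24. A Z-score over the nearest detected probes, chosen after seeing the data, gave 627 and 425 and the same 3 members. Without the filter on dim probes *Il6* had a log2 ratio of -1.11 and no call. No paired analysis was possible because each genotype has 1 array, and no array could be left out. Genes near background, such as *Il11* in Cx30 KO, are limited by signal over background.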
